A study of Homo sapiens with 4 samples.

Results

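The genes described are 34 targets of the hypoxia-inducible factors (HIFs) that act outside glycolysis, picked by name as known targets. They were chosen with earlier results of these data known. All 34 symbols were found among the 17791 genes of the deposited table, and all 34 had at least 1 CPM in 1 or more libraries, as had 14851 genes in all. CPM is the number of counts in every 1000000 after the library sizes were scaled. Expression was measured by RNA sequencing of 3 engineered prostate cancer tissues (EPCaTs) and of a flat coculture. Each EPCaT combined PC-3, a line grown from the metastasis of a prostate tumour, with BJ-5ta, a foreskin fibroblast line immortalised with telomerase, at 5 PC-3 to 1 BJ-5ta, and was taken on day 15. The gel was PEG-fibrinogen (PF), in which polyethylene glycol is joined to fibrinogen. The PF EPCaT had no further crosslinker, and the PF+2%PEGDA EPCaT and PF+3%PEGDA EPCaT had polyethylene glycol diacrylate (PEGDA) added at 2% or 3% weight per volume. The cell density of each EPCaT is given as 20 x 1000000 cells per mL. The 2D coculture held both lines on a flat surface, and its day, cell ratio and cell density are not given in the labels. The labels name no drug and no set oxygen level, and RNA of each EPCaT library was pooled from more than 2 tissues. Below, the EPCaTs are also called the PF, 2% PEGDA and 3% PEGDA gels, and 3 values for the gels stand in that order.

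There was 1 library per group, so nothing here has a replicate check and p-values are not printed. Library totals ran from 13760301 to 15687894 counts, and a single count was worth 0.0600 to 0.0734 CPM. A gene is written as higher or lower below when its levels were at least 2-fold apart and the exact 95% interval of their ratio excluded equality. Only counting error enters these intervals. The cell lines were checked against their markers. Of 15 tested fibroblast markers, 12, 11 and 11 were lower in the PF, 2% PEGDA and 3% PEGDA gels than in 2D and 0 were higher, with a summed level of 879, 932 and 681 CPM in the 3 gels and 4406 CPM in 2D (PDGFRB and COL1A2 were farthest from 2D). POSTN was also on the fibroblast list but was under 1 CPM in every library and was not tested. It had 0 counts in the 2% and 3% PEGDA gels. Of 12 epithelial markers, 4, 5 and 5 were higher in the gels and 0 were lower. ST14, ELF3 and CDH1 were higher in each gel. A level under that of 2D, without passing the rule, was found for 3, 2 and 2 of the 12. All 12 are in the sums that follow. They summed to 5803, 6601 and 6182 CPM in the gels and 4176 CPM in 2D, of which KRT19 alone took 1247, 1865 and 1768 CPM in the gels and 752 CPM in 2D. CTNNA1, the alpha-catenin gene, which PC-3 has lost by deletion, measured 5.40, 6.19 and 8.29 CPM in the gels and 33.1 CPM in 2D. Of 7 markers of endothelial and blood cells, which were not seeded, 4 were tested. PECAM1 and LYZ were higher in each gel, TIE1 was lower in the PF gel and CD68 was lower in the PF and 2% PEGDA gels, with summed levels of 121, 139.7 and 156 CPM in the gels and 127 CPM in 2D. In bulk RNA, fewer cells of a type and less RNA per cell cannot be told apart, and the part of these markers in the results below was not tested.

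HIFs are pairs of an oxygen-sensitive alpha subunit and the stable subunit ARNT. In normal oxygen, prolyl hydroxylases mark the alpha subunit for breakdown through VHL, and in low oxygen it accumulates, enters the nucleus and binds short sites with the core ACGTG or GCGTG near its target genes. Beyond glucose use, these targets remove mitochondria, slow growth and protein synthesis, remodel chromatin and send signals to other cells. The core letters were looked for in the promoters of the members, taken as 250 bases before to 50 bases after each start in the RefSeq table for GRCh38.p14. Promoters were held for 26 of the 34 members. The letters ACGTG or GCGTG, on either strand, occurred in at least 1 listed promoter of 23 of these 26 (88.5%), against 68.8% of 11452 tested genes in the table. ACGTG alone occurred in 73.1% of the members and 31.5% of tested genes, GCGTG in 61.5% and 57.3%, and CACGTG, a palindrome that holds ACGTG on each strand, in 46.2% and 12.1%. The members were picked as known HIF targets, so these shares describe that choice. A match is no proof of a site in these cells. The promoters of 6 members are shown as examples, picked after their values were seen, that hold from 1 to 6 occurrences of the letters and differ in their ratios: PPFIA4 had the largest ratio to 2D, ADM, ANKRD37 and BNIP3 were over 3-fold higher in each EPCaT, and KDM4B and KDM4C are relatives of which KDM4B was higher and KDM4C within 2-fold. Each is written 5' to 3' on the strand of its gene, with ACGTG or GCGTG on either strand in capitals. They lie at chr1:203026241-203026540 (plus strand, PPFIA4), chr11:10304823-10305122 (plus, ADM), chr4:185396591-185396890 (plus, ANKRD37), chr10:131981874-131982173 (minus, BNIP3), chr19:4968863-4969162 (plus, KDM4B) and chr9:6757723-6758022 (plus, KDM4C).
PPFIA4: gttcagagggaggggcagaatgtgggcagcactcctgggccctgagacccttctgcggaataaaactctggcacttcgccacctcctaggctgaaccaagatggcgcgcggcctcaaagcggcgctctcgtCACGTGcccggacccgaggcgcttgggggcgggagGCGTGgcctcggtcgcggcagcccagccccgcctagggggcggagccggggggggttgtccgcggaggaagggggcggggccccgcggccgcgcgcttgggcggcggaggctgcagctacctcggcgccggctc
ADM: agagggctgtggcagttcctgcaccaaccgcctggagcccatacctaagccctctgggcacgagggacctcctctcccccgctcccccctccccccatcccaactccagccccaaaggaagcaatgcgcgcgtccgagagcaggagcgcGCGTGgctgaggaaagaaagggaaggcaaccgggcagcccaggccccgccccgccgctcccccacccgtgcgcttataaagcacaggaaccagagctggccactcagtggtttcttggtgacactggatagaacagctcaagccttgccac
ANKRD37: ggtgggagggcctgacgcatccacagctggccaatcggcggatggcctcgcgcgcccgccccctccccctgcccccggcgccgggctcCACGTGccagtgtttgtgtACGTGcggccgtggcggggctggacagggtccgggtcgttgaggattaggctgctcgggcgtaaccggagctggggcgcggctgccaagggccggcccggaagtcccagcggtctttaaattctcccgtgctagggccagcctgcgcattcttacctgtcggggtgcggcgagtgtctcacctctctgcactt
BNIP3: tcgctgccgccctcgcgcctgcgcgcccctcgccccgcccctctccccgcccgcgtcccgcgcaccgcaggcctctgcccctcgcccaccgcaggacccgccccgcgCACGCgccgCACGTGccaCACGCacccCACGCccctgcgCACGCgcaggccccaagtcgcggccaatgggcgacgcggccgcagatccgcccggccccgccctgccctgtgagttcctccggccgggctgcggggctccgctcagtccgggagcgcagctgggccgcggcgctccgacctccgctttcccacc
KDM4B: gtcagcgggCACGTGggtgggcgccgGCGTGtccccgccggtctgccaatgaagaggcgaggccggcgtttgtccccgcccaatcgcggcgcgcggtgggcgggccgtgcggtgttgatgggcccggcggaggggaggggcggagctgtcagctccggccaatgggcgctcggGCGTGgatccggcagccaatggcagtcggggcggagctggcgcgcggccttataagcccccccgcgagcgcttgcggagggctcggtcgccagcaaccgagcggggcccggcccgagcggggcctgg
KDM4C: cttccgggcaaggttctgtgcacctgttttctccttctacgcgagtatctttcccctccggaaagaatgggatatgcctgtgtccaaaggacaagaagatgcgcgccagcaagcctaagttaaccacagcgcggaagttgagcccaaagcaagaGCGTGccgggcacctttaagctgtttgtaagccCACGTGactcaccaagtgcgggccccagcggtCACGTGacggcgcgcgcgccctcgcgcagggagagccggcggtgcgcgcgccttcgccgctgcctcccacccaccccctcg
With a palindrome counted on both strands, BNIP3 held 6 occurrences, KDM4C 5, KDM4B 4, PPFIA4 and ANKRD37 3 each, and ADM 1.

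The first question was how the members differed between gel culture and flat culture. Most were higher in the gels. Of 34 members, 20 were higher in the PF gel than in 2D, 26 with 2% PEGDA and 26 with 3% PEGDA, where 16.5%, 12.4% and 12.1% of all tested genes were higher. The median log2 ratios of the members were 1.37, 1.40 and 1.39 in that order, against 0.02, 0.01 and 0.00 over all tested genes. NDUFA4L2 was the 1 member lower than 2D in each EPCaT, where 12.0%, 9.45% and 10.4% of tested genes were lower. The shares of tested genes given here for each gel against 2D also stand beside the counts by role and by list below. The 3 comparisons share the 2D library, so their calls are not independent. In every EPCaT, 20 members were higher (7.85% of tested genes) and 1 was lower (6.07%), and 9 were at least 4-fold higher (3.03%). Another 7 were higher in 1 or 2 of the gels, and STC2, KDM4C, JMJD6, MAFF, RLF and TMEM45A were within 2-fold of 2D in each. Together the members took 9587, 11350 and 11900 CPM in the gels and 3447 CPM in 2D, and without NDRG1 4978, 5708 and 6035 CPM in the gels and 2919 CPM in 2D.

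**Figure D1:**
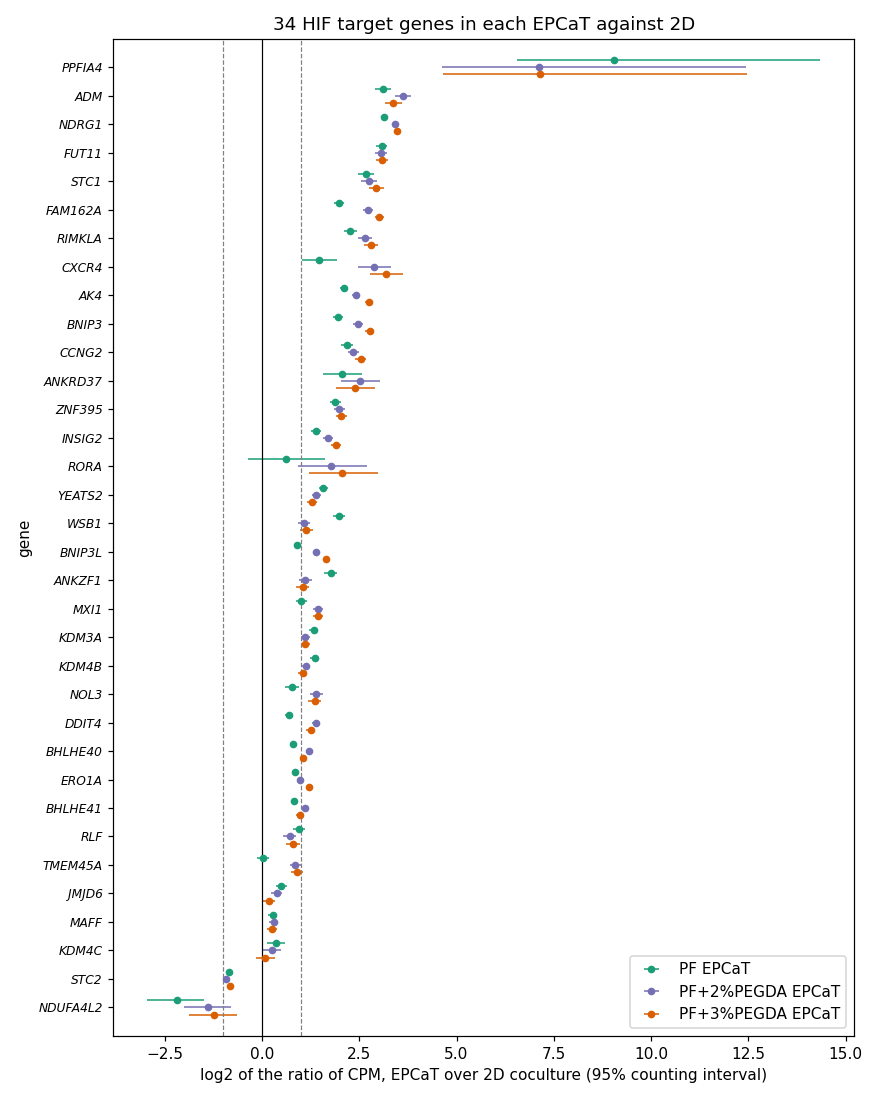
Log2 of the ratio of CPM in each EPCaT over the 2D coculture (x axis) for each of the 34 members (y axis), with 1 point per EPCaT and bars for the 95% counting interval. Dashed lines mark 2-fold, PPFIA4 lies farthest to the right with wide bars from its 1 count in 2D, and STC2 and NDUFA4L2 lie left of 0.

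Among secreted factors and a receptor, 3 of 4 members were higher in each EPCaT. ADM encodes adrenomedullin, a peptide that widens blood vessels, and lies on chromosome 11 from 10304680 to 10307397 (GRCh38, plus strand). It measured 118, 168 and 141 CPM in the gels, against 13.6 CPM in 2D. The ratios were 8.64 (95% interval 7.47 to 10.05), 12.3 (10.7 to 14.3) and 10.4 (8.96 to 12.1), and the 2D level lay far under all 3 EPCaTs. STC1, a secreted stanniocalcin, measured 102, 108 and 123 CPM in the gels and 16.1 CPM in 2D, 6.34- to 7.67-fold higher. Its relative STC2 went the other way, with 623, 595 and 636 CPM in the gels and 1119 CPM in 2D. That was 1.76- to 1.88-fold less in the EPCaTs, within the 2-fold rule. STC2 is also known as a target of ATF4, the factor of the integrated stress response. A list of 15 genes held ATF4 itself and targets of it. Of these, 10 were lower in each EPCaT (6.07% of tested genes), with CHAC1, TRIB3, ASNS and CEBPB the farthest from 2D. VLDLR of that list was 2.80-fold higher in the 3% PEGDA gel, where 12.1% of tested genes were higher. The part of these genes in the STC2 level was not tested. CXCR4, the receptor for the chemokine CXCL12, measured 10.6, 28.0 and 34.9 CPM in the gels and 3.82 CPM in 2D, so that its ratio to 2D ran from 2.78 (2.05 to 3.83) in the PF EPCaT to 9.14 (6.92 to 12.3) in the 3% PEGDA gel.

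Of 6 members that encode mitochondrial or cell death proteins, 3, 5 and 5 were higher in the gels and 1 was lower. BNIP3 and BNIP3L sit on the outer membrane of mitochondria and mark them for removal by autophagy. BNIP3 (chromosome 10, 131966455 to 131982013, minus strand) measured 177, 253 and 311 CPM in the gels, against 45.6 CPM in 2D, which was 3.89- to 6.81-fold higher. Of its 50-base stretches 11.04% also occur in other genes. BNIP3L measured 209, 293 and 348 CPM in the gels and 111 CPM in 2D, and was 1.88-fold above 2D in the PF EPCaT and 2.63- and 3.13-fold in the 2% and 3% PEGDA gels, past the rule in the last 2 alone. FAM162A, a mitochondrial protein gene tied to cell death in low oxygen, measured 174, 292 and 356 CPM in the gels and 44.1 CPM in 2D (3.95- to 8.07-fold). AK4, an adenylate kinase of the mitochondrial matrix, measured 251, 312 and 394 CPM in the gels and 58.4 CPM in 2D (4.30- to 6.74-fold). For BNIP3, FAM162A and AK4 each EPCaT stood clear of 2D and the ratio was largest with 3% PEGDA. NOL3, an inhibitor of apoptosis, measured 44.5, 69.1 and 67.0 CPM in the gels and 26.2 CPM in 2D, and was higher in the 2% and 3% PEGDA gels.

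NDUFA4L2 stood apart. It encodes a relative of the cytochrome c oxidase subunit NDUFA4 that is known to damp respiration in low oxygen. It measured 1.26, 2.19 and 2.42 CPM in the gels and 5.72 CPM in 2D, or 21, 34 and 33 counts against 84 counts. The level was 4.54-fold lower in the PF EPCaT (interval 2.79 to 7.72), 2.61-fold in the 2% PEGDA gel (1.74 to 4.01) and 2.36-fold in the 3% PEGDA gel (1.56 to 3.65). With the trend of ratios with transcript length and GC content removed, the log2 ratio in the 3% PEGDA gel was -0.996, just short of the rule. Some 1.18% of its exon bases lie opposite exons of SHMT2, which measured 174, 181 and 178 CPM in the gels and 447 CPM in 2D, and the library kit does not mark strand. The part of SHMT2 reads and of the fibroblast markers in this result was not tested.

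Of the 4 growth and stress genes, 3, 4 and 4 were higher in the gels. NDRG1, a stress-induced gene that restrains growth and spread of cancer cells, was the most abundant member per kilobase of exon in each EPCaT, at 469, 574 and 598 CPM per kb, against 53.7 CPM per kb in 2D. In 2D, STC2 came first at 183 CPM per kb and BHLHE40 second at 83.9. NDRG1 alone made up 48.1%, 49.7% and 49.3% of the members' summed CPM in the gels and 15.3% in 2D. Its level was 4609, 5642 and 5869 CPM in the gels, against 527 CPM in 2D, with ratios of 8.74 (8.54 to 8.95), 10.7 (10.45 to 10.95) and 11.1 (10.9 to 11.4). CCNG2, an atypical cyclin that slows the cell cycle, measured 140.4, 156 and 179 CPM in the gels and 30.8 CPM in 2D (4.56- to 5.80-fold). WSB1, the substrate receptor of a ubiquitin ligase, measured 124, 66.9 and 69.3 CPM in the gels and 31.5 CPM in 2D, so its ratio was largest in the PF EPCaT at 3.93 (3.55 to 4.36). DDIT4, an inhibitor of mTOR complex signalling, measured 118, 193 and 173 CPM in the gels and 72.9 CPM in 2D, and was higher in the 2% and 3% PEGDA gels. DDIT4 is a target of ATF4 as well, and 41.2% of its exon bases lie opposite the antisense gene DDIT4-AS1, so its reads are uncertain without strand.

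Histone demethylases use oxygen as a substrate, and several are HIF targets. Of 4 such genes, with JMJD6 counted among them, 2 were higher in each gel. KDM3A measured 135, 116 and 116 CPM in the gels and 53.5 CPM in 2D. KDM4B measured 159.9, 137 and 129 CPM in the gels and 62.5 CPM in 2D. Both were 2.06- to 2.56-fold higher in the EPCaTs, close to the 2-fold rule. KDM4C, of the same family as KDM4B, measured 23.5, 21.8 and 19.4 CPM in the gels and 18.3 CPM in 2D, within 2-fold throughout, and its interval in the 3% PEGDA gel (0.895 to 1.27) included equality. JMJD6, an oxygenase of the same protein class that acts on lysines of other proteins, measured 62.7, 58.0 and 50.7 CPM in the gels and 44.6 CPM in 2D, also within 2-fold. With the length and GC trend removed, KDM3A in the 3% PEGDA gel had a log2 ratio of 0.98 and fell short of the rule.

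The 8 transcription factors and chromatin readers were all above 2D in level, and 3, 6 and 5 of them were higher in the gels. ZNF395, a zinc finger factor, measured 137, 147 and 152 CPM in the gels and 37.1 CPM in 2D (3.69- to 4.11-fold), although 34.9% of its exon bases overlap FBXO16 on the same strand (2.88, 3.22 and 4.04 CPM in the gels and 2.66 CPM in 2D). YEATS2, a reader of modified histones, measured 144, 127 and 117 CPM in the gels and 48.0 CPM in 2D (2.44- to 2.99-fold). MXI1, an antagonist of MYC, measured 85.7, 115 and 115 CPM in the gels and 42.4 CPM in 2D (2.02- to 2.71-fold). These 3 passed the rule in every EPCaT. BHLHE40, a repressor linked to the circadian clock, measured 564, 741 and 667 CPM in the gels and 322 CPM in 2D, and was higher in the 2% PEGDA (2.30-fold) and 3% PEGDA (2.07-fold) gels. Its relative BHLHE41 measured 231, 284 and 257 CPM in the gels and 131 CPM in 2D, higher in the 2% PEGDA gel alone (2.17-fold). RORA, a nuclear receptor of the clock, was scarce, with 26, 54 and 58 counts in the gels and 15 counts in 2D, and was higher in the 2% PEGDA gel (3.41-fold, 1.89 to 6.50) and the 3% PEGDA gel (4.17-fold, 2.33 to 7.91). In the PF gel its ratio was 1.53, with an interval (0.779 to 3.10) that included equality. RLF, a zinc finger gene, measured 59.0, 49.9 and 53.1 CPM in the gels and 30.5 CPM in 2D, and MAFF, a small MAF factor, 85.4, 86.7 and 84.2 CPM in the gels and 70.2 CPM in 2D. Both stayed within 2-fold.

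Of 4 genes for proteins of the endoplasmic reticulum, membranes and Golgi, 2, 2 and 3 were higher in the gels. FUT11, a fucosyltransferase gene, had 236, 234 and 237 CPM in the gels and 28.0 CPM in 2D. Its ratios of 8.43, 8.34 and 8.47 were nearly equal across the gels, and 11.7% of its exon bases lie opposite another gene. INSIG2, which holds back sterol synthesis by retaining the SREBP complex, measured 106, 131 and 151 CPM in the gels and 40.3 CPM in 2D (2.63- to 3.76-fold). ERO1A, the oxidase that drives disulfide bonds in the endoplasmic reticulum, measured 567, 625 and 739 CPM in the gels and 317 CPM in 2D, and passed the rule in the 3% PEGDA gel alone (2.33-fold, 2.25 to 2.42). TMEM45A, a membrane protein gene, measured 43.7, 76.9 and 79.7 CPM in the gels and 42.6 CPM in 2D, within 2-fold, and its PF interval (0.919 to 1.14) included equality. Of its 50-base stretches 23.5% occur in other genes.

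The remaining 4 members were higher in each EPCaT. PPFIA4, a liprin-alpha scaffold gene on chromosome 1 (203026498 to 203078740, plus strand), measured 35.8, 9.53 and 9.68 CPM in the gels, against 1 count (0.0681 CPM) in 2D. Its ratios were 526 (94.0 to 20800), 140.0 (24.7 to 5565) and 142 (25.1 to 5658), the intervals being wide because of that single count. By its mean log2 ratio PPFIA4 ranked 6 among all 14851 tested genes, ADM 230, NDRG1 236 and FUT11 284. RIMKLA, which makes the peptide N-acetylaspartylglutamate, measured 103, 133 and 148 CPM in the gels and 21.3 CPM in 2D (4.83- to 6.93-fold). ANKRD37, an ankyrin repeat gene, measured 11.9, 16.4 and 14.9 CPM in the gels and 2.86 CPM in 2D (4.17- to 5.72-fold). Some 35.2% of its exon bases lie opposite UFSP2, which measured 17.5, 18.9 and 19.9 CPM in the gels and 15.5 CPM in 2D. ANKZF1, a factor of ribosome quality control, measured 94.4, 60.4 and 57.3 CPM in the gels and 27.8 CPM in 2D (2.06- to 3.40-fold).

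**Figure D2:**
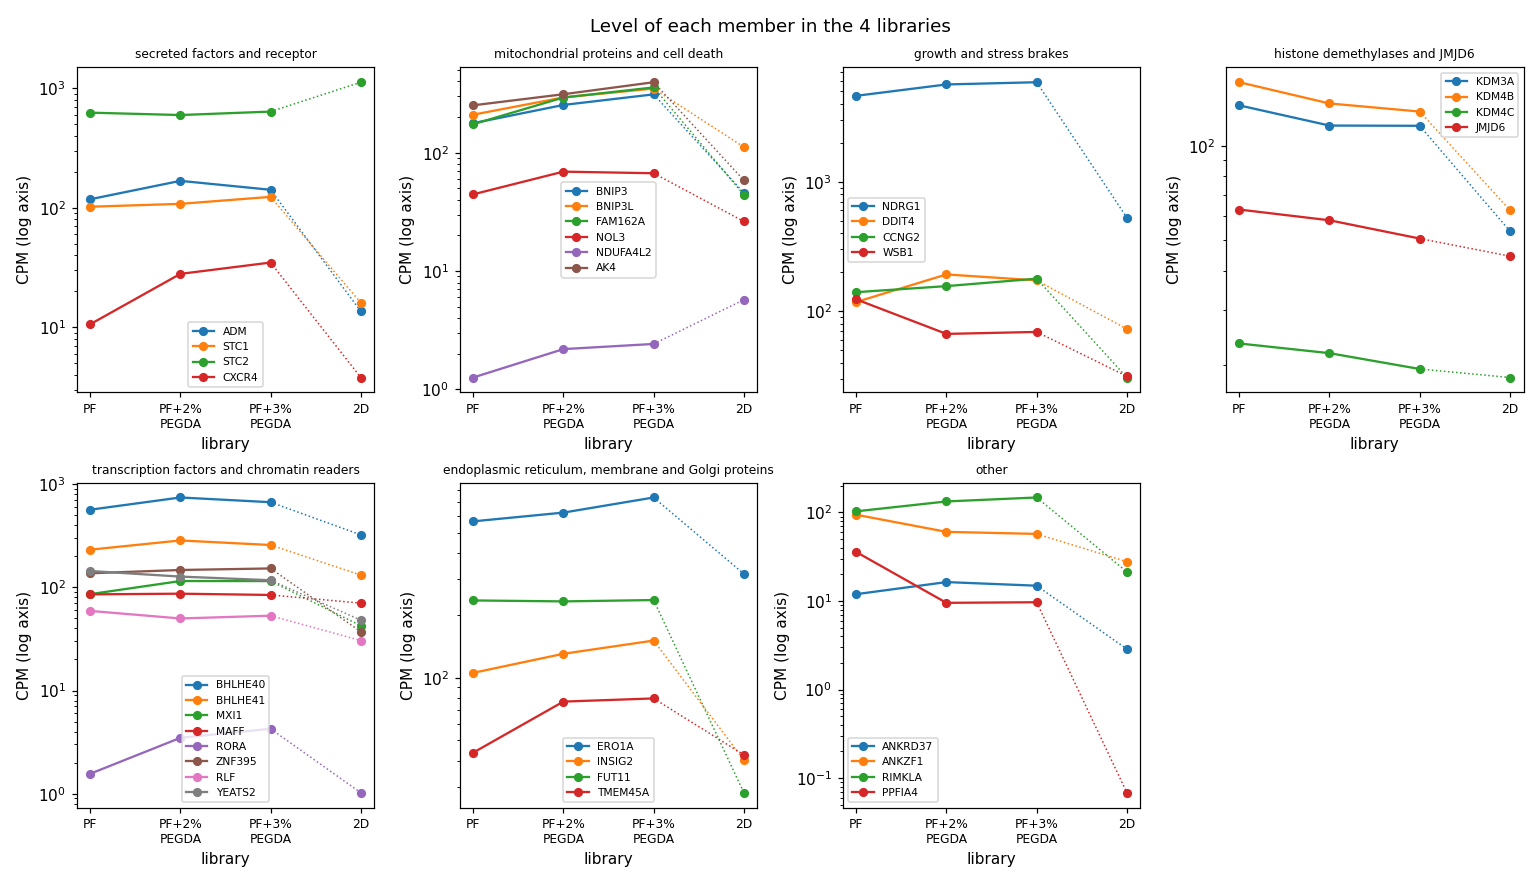
CPM of each member on a log axis (y) in each gel library, by PEGDA content, and in 2D (x), in 7 panels by role, with 1 point per library and solid lines joining the EPCaTs. Dotted lines lead to the 2D library, where most members were at their lowest and STC2 and NDUFA4L2 at their highest.

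The rest of the pathway was set beside the members. Of 21 glycolytic HIF targets, 13, 18 and 18 were higher in the PF, 2% PEGDA and 3% PEGDA gels and 0 lower, with medians of 1.36, 1.70 and 1.74 on the log2 scale. PFKFB4, ALDOC, PGK1 and ENO2 were farthest above 2D among them, as PFKFB4, which sets the level of a glycolytic activator, had 203, 257 and 257 CPM in the gels and 20.8 CPM in 2D. Of 21 other HIF targets reported here, 7, 7 and 11 were higher. The medians of that list were 0.57, 0.61 and 1.02, and ANGPTL4, CA9, HILPDA and CA12 were farthest above 2D. HILPDA, a lipid droplet protein gene, had 176, 257 and 296 CPM in the gels and 16.1 CPM in 2D. VEGFA, the angiogenic factor, was within 2-fold of 2D. Of 10 tested HIF subunits and oxygen sensors, 3, 4 and 4 were higher, among them ARNT2 and the prolyl hydroxylase genes EGLN3 and EGLN1 in all 3. EGLN3 had 38.9, 59.8 and 70.0 CPM in the gels and 0.409 CPM (6 counts) in 2D. HIF1A itself had 245, 232 and 238 CPM in the gels and 395 CPM in 2D, and EPAS1, which encodes the HIF-2 alpha subunit, 119.7, 90.4 and 100.3 CPM in the gels and 120.4 CPM in 2D, both within 2-fold.

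**Figure D3:**
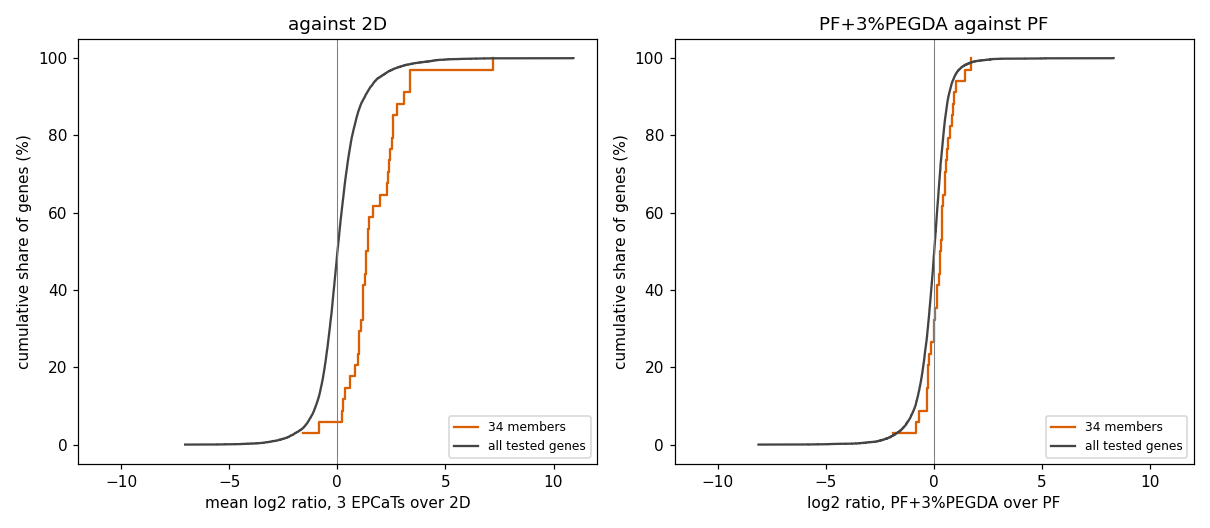
Cumulative share of genes (y axis, percent) by log2 ratio (x axis) for the 34 members and for all tested genes, as the mean of the 3 EPCaTs over 2D on the left and as PF+3%PEGDA over PF on the right. The member curve lies to the right of the curve of all genes over most of its range against 2D, and closer to it between the gels.

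Many members belong to small gene families, and these family relatives were set beside them. Of all tested genes, 16.5%, 12.4% and 12.1% were higher than 2D in the 3 gels and 12.0%, 9.45% and 10.4% were lower. Of 31 relatives reported here, 5, 6 and 5 were higher in the PF, 2% PEGDA and 3% PEGDA gels and 2, 1 and 1 were lower, with medians of 0.14, 0.26 and 0.21. In 28 of these 31 pairs the member had the larger mean log2 ratio. ADM and ADM2 lay farthest apart after the PPFIA4 pairs, since ADM2 measured 26.7, 25.1 and 24.2 CPM in the gels and 88.9 CPM in 2D and was lower in each. NDRG3, AK1, FUT10, RIMKLB, KDM4A and JMJD1C had mean log2 ratios between -0.51 and -0.04, while the members they were paired with were higher. KDM4A was paired with KDM4B alone, and the member KDM4C of the same family was within 2-fold. Other relatives were higher themselves. ZNF704, the relative of ZNF395, was 2.11- to 2.60-fold higher in each gel. INSIG1 was higher in the 2% and 3% PEGDA gels (2.36- and 3.26-fold), and NDRG4 in the PF and 2% PEGDA gels (2.46- and 2.26-fold). NDRG2 was higher in the 2% PEGDA gel alone, from 5 counts in 2D. PPFIA1 and ZNF292 were higher in the PF gel alone, and CCNG1 in the 3% PEGDA gel alone. The pairs in the other order were NDUFA4L2 with NDUFA4, TMEM45A with TMEM45B, and RLF with ZNF292. TMEM45B measured 246, 281 and 365 CPM in the gels and 65.1 CPM in 2D, 3.78- to 5.60-fold higher, where TMEM45A did not pass the rule. ACKR3, the other receptor of CXCL12, measured 5.58, 15.0 and 20.9 CPM in the gels and 5.11 CPM in 2D, and so was higher in the 2% and 3% PEGDA gels, as CXCR4 was in each.

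**Figure D4:**
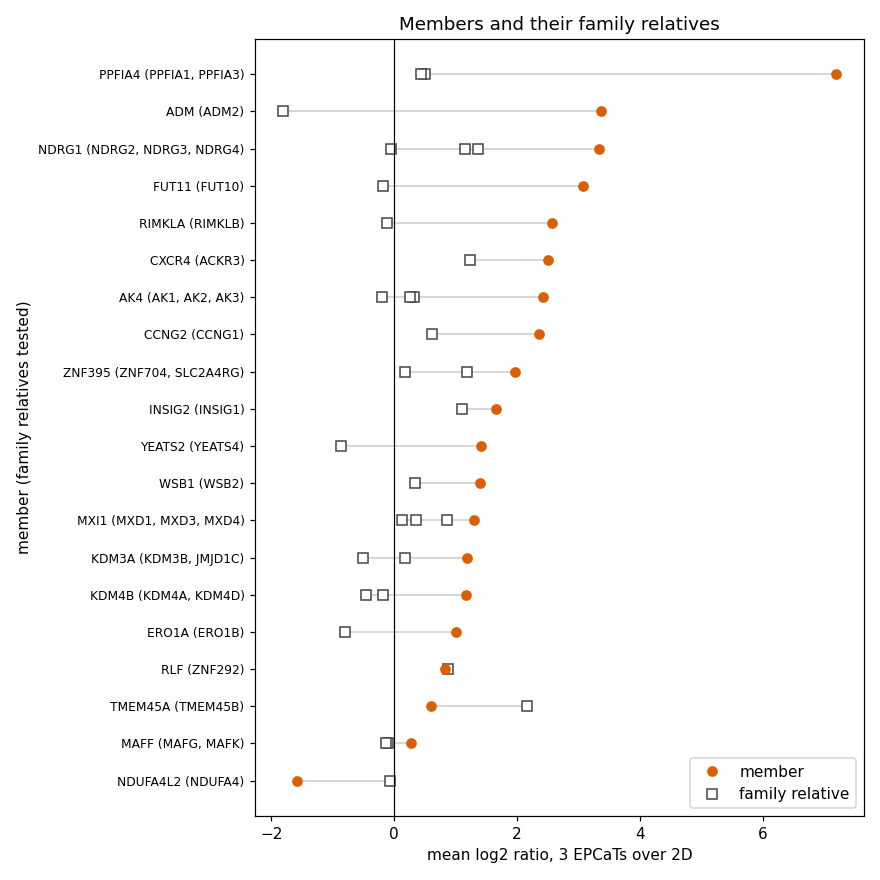
Mean log2 ratio of the 3 EPCaTs over 2D (x axis) for members (filled circles) and the family relatives reported (open squares), with 1 family per line (y axis). The member lies to the right of each relative except in the NDUFA4L2, TMEM45A and RLF lines.

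The second question was whether the members differed with the PEGDA content of the gel, by which the study varied stiffness. The median difference between gels was smaller than that against 2D. In the 3% PEGDA gel, 3 of 34 members were higher than in the PF EPCaT (3.64% of all tested genes) and 1 was lower (7.49%). In the 2% PEGDA gel, 2 were higher than in PF (2.98%) and 1 was lower (5.56%). Between the 3% and 2% PEGDA gels 0 members were higher (1.87%) and 0 lower (2.39%). The median log2 ratios of the members were 0.30 for PF+3%PEGDA against PF, 0.29 for PF+2%PEGDA against PF and 0.05 for PF+3%PEGDA against PF+2%PEGDA. The glycolytic targets had a median of 0.34 in PF+3%PEGDA against PF, and all tested genes 0.00.

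CXCR4 had 34.9 CPM in the 3% PEGDA gel and 10.6 CPM in the PF EPCaT, 3.28-fold higher (2.76 to 3.92), and RORA was 2.73-fold higher (1.69 to 4.52). FAM162A was 2.05-fold higher (1.95 to 2.14), and fell short of the rule with total counts as the only scaling (log2 ratio 0.93) or with the length and GC trend removed (0.92). CXCR4 (2.64-fold) and RORA (2.23-fold) also passed in PF+2%PEGDA against PF. PPFIA4 was the member lower in both PEGDA gels, with 9.53 and 9.68 CPM in the 2% and 3% PEGDA gels and 35.8 CPM in PF. That made it 3.70-fold lower (3.06 to 4.50) with 3% PEGDA, and it had the largest ratio to 2D in the gel without PEGDA. Most of each difference lay in the step to 2% PEGDA.

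With differences of any size counted, the interval of PF+3%PEGDA against PF lay above equality for 22 of 34 members, against 32.0% of tested genes. It lay below equality for 9, against 31.8%. Members past the 2-fold rule are among these. The level ran upward from PF through 2% to 3% PEGDA in 15 members (25.4% of tested genes) and downward in 6 (25.2%). These counts were not repeated under another scaling, and total counts alone moved every PF+3%PEGDA against PF log2 ratio by -0.10. All 6 mitochondrial and cell death genes had an interval above equality. BNIP3 was 1.75-fold above PF in the 3% PEGDA gel (1.67 to 1.84), BNIP3L 1.66-fold, AK4 1.57-fold and NOL3 1.51-fold, and the group of 6 had a median log2 ratio of 0.77. The 4 demethylase and oxygenase genes had ratios under 1, from 0.81 for KDM4B and JMJD6 to 0.86 for KDM3A, each with an interval below equality. With the length and GC trend removed, their log2 ratios ran from -0.21 for KDM4C to -0.01 for KDM4B. WSB1 and ANKZF1 were at 0.56 and 0.61 of PF. FUT11 and STC2 lay between 1.00 and 1.02 times PF, with intervals that included equality.

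**Figure D5:**
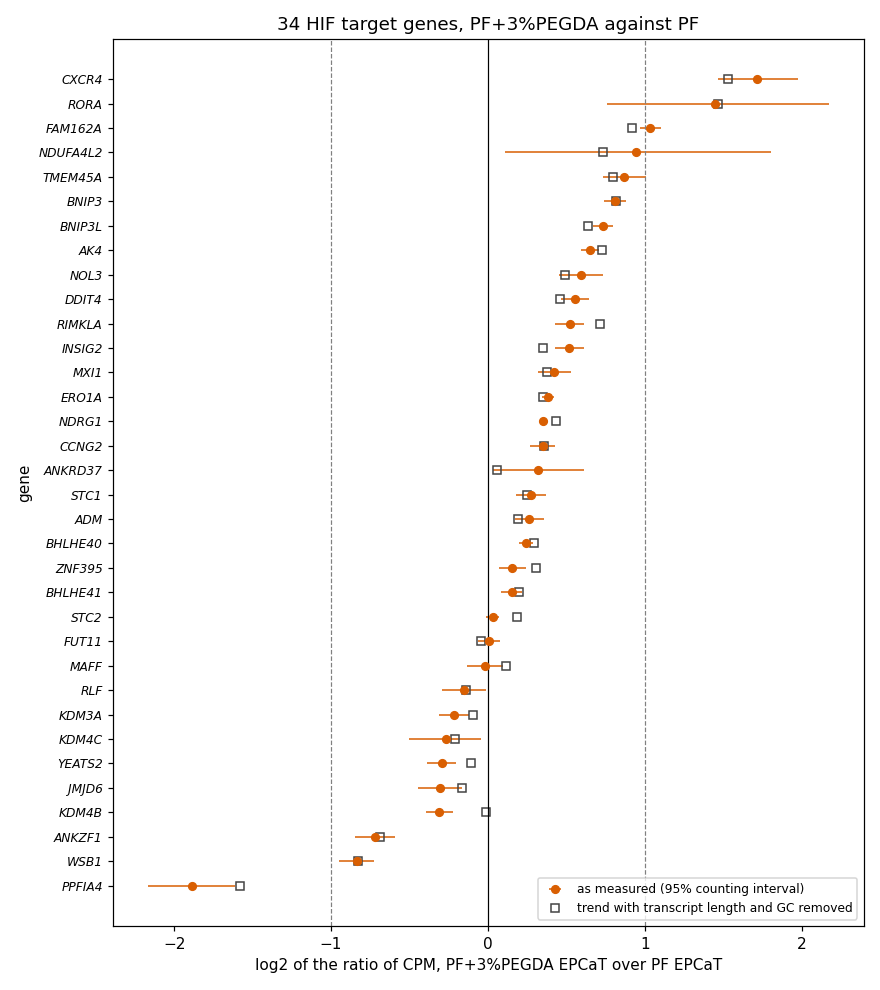
Log2 of the ratio of CPM in the 3% PEGDA gel over the PF EPCaT (x axis) for each member (y axis), with filled points as measured with 95% counting intervals and open squares after correction for transcript length and GC. CXCR4, RORA and FAM162A lie past the 2-fold line on the right as measured and PPFIA4 on the left.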

How the data were processed

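The values deposited by the authors are expected counts, that is, read numbers estimated for each gene, unscaled, in 1 table. Per the submitters' processing notes, STAR, FastQC and Partek were used with build hg38; versions, annotation and counting method are not given in the sources used here. Between 18.2% and 19.9% of values per library were not whole (tolerance 0.01), and all were rounded. Scaling used edgeR 4.0.16 under R 4.3.3 with its TMM factors, over genes that reached 1 CPM in any library. Log2 ratios used a prior count of 0.5. With 1 library per group there is no test; exact Clopper-Pearson 95% intervals of the ratio of 2 counts were used. A difference in cultures or library making is not in these intervals. Python 3.11.15 was used with scipy 1.17.1, numpy 2.4.6, matplotlib 3.10.9 and pandas 2.3.3.

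Gene models, exon overlaps and shared 50-base stretches came from GENCODE release 29 (GRCh38), and promoters from RefSeq. All 34 members are named, and from each other list up to 4 genes past the rule in each EPCaT, ranked by mean log2 ratio; HIF1A, EPAS1, VEGFA, CTNNA1, POSTN, TIE1, CD68, KRT19, SHMT2, UFSP2, FBXO16 and the family relatives were named outside that rule, beside a member or list, after their values were seen. In the list of other HIF targets and in that of family relatives, 1 gene each is not reported here and is left out of the counts and medians of its list. The members, lists and rules were chosen with earlier results of these data known. Alternatives tried were total counts as the only scaling, size factors of DESeq2 1.42.0, other filters, prior count and fold, unrounded values, and removal of the trend with transcript length and GC.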

Additional observations from a re-analysis of the deposited data

How the results depend on the processing

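Over the 3 comparisons against 2D, the median log2 ratio of the members ran from 1.30 to 1.55 under every alternative scaling and with the length and GC trend removed. At 4-fold in place of 2-fold, 9, 12 and 14 members were higher in the PF, 2% PEGDA and 3% PEGDA gels than in 2D (6.45%, 4.45% and 4.55% of all tested genes), 9 in all 3 (3.03%), and the count lower was 0 in the 2% and 3% PEGDA gels (2.66% and 3.14%) and in all 3 (1.45%). The 4-fold counts were 0 higher and 0 lower in PF+3%PEGDA against PF (0.667% and 1.97%) and in PF+2%PEGDA against PF (0.646% and 1.40%). At 1.5-fold, 2 members were lower than 2D in the PF, 2% PEGDA and 3% PEGDA gels (22.2%, 18.3% and 19.6%) and in all 3 (12.2%). In PF+3%PEGDA against PF 9 were higher (10.9%) and 3 lower (15.3%), and in PF+2%PEGDA against PF 6 were higher (8.55%) and 3 lower (11.5%). These changes follow from the size rule itself. With at least 5 CPM asked for, RORA was not tested and 1 member was higher in PF+2%PEGDA than in PF. With the length and GC trend removed, 0 members were lower in PF+3%PEGDA than in 2D and 0 in all 3, since NDUFA4L2 then had a log2 ratio of -0.996; the cause was not tested. Total counts as the only scaling moved every log2 ratio by 0.18, 0.11 and 0.08 in the PF, 2% PEGDA and 3% PEGDA gels against 2D and by -0.10 in PF+3%PEGDA against PF, and took BNIP3L and RLF in PF, ERO1A in PF and PF+2%PEGDA, and BHLHE41 in PF+3%PEGDA past the rule. The length and GC trend removed took NOL3 in PF past it. DESeq2 size factors, a prior count of 2, no filter and unrounded values changed no call of a member in the 6 comparisons. Leaving out DDIT4, ZNF395, TMEM45A and ANKRD37, which share over 20% of their exon bases or 50-base stretches with another gene, an alternative chosen after seeing the data, kept each count within 1.5 times. No paired analysis was possible because each group has 1 library. At this depth RORA and NDUFA4L2 rest on under 100 counts in every library.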
